A study of Arabidopsis thaliana with 9 samples.

Results

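RNA levels in whole root cells were set against RNA levels in root nuclei of Arabidopsis thaliana, gene by gene, inside each cluster of cells. The deposited whole-cell table and nucleus table carry the same numbering of clusters, and 20 numbers occur in both. Every gene listed in both tables was taken, which gave 23241 genes of the 34614 found in any expression table of the series. Of these, 13755 genes reached a floor of 0.5 per 10000 in either table in at least 1 cluster and were used. A gene was called shifted in a cluster when it reached that floor there and its whole-cell and nucleus values differed at least 2-fold. Where a gene reaches the floor through whole cells alone it can only be called higher, and through nuclei alone only lower. The difference is always log2(whole cell + 0.1) minus log2(nucleus + 0.1), so a positive value means a higher share of the RNA in whole cells. The median difference of a gene is taken over all 20 clusters, those in which it is under the floor included. Genes shifted the same way in all 20 clusters were then kept apart from genes shifted in only 1 to 5 clusters.

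A nucleus holds newly made transcripts, many of them unspliced or waiting for export, while most mature messenger RNA of a cell lies in its cytoplasm. A whole-cell profile therefore weighs stable, exported messages, and a nuclear profile weighs recent transcription and RNA that is kept in the nucleus. Plant cells also have to be freed from their walls before they can be captured whole, usually as protoplasts by enzyme digestion, whereas nuclei can be released by chopping.

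The series was made from Col-0 seedlings. The nucleus table pools 5 libraries of sorted nuclei, released by chopping roots of plants aged 7 days. The 2 bulk RNA libraries, 1 from intact root tips and 1 from protoplasts of root tips, came from 6-day-old plants, although the title of the intact library reads whole root. The labels give 2 growth regimes, which differ in temperature and in day length, for the 2 ages. The 2 chromatin accessibility libraries were not used here. The whole-cell table has no sample of its own in the labels, so its plants, their age and the way the cells were prepared are not described. Neither table has a replicate value, so no p-value is given, and a difference between the tables cannot be told apart from a difference in plants, preparation or counting. The depth behind the averages is unknown. Between 2392 and 6963 genes are listed at 0 in a whole-cell column and between 3270 and 8722 in a nucleus column. Cluster 14, which holds suberin genes in the nucleus table, has no whole-cell column.

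The 2 columns with the same number resembled each other to different degrees. After each gene was centred over the 20 clusters of its own table, same-numbered columns had Spearman correlations across genes from 0.34 in cluster 4 to 0.70 in cluster 2. In 13 clusters each column was the other's best match among all 20. In clusters 10, 11 and 19 the whole-cell column was closer to another nucleus column, namely 9, 5 and 8. In clusters 1, 4, 7 and 17 the nucleus column was closer to another whole-cell column, namely 2, 5, 9 and 18. Results for these 7 numbers may compare partly different cells, and the counts below are also given for the other 13.

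Marker genes were read to check the numbering. Of 68 markers of 14 cell types or states, 42 reached the floor in their highest cluster in both tables, and 34 of these were highest under the same number in both. All 7 xylem genes were highest in cluster 21 of both tables, all 6 mitosis genes in cluster 10 and 7 of 8 Casparian strip genes in cluster 16. The Casparian strip membrane gene CASP1 was at 93.3 per 10000 in nucleus column 16 and at 110.9 in whole-cell column 16. Root cap genes were not highest under the same number in both tables. SMB, a root cap maturation factor, was highest at 0.885 in nucleus column 7 but at 1.23 in whole-cell column 10, where the nucleus value was 0.0149. BRN1 and BRN2, its relatives, were likewise highest in whole-cell column 10, at 1.11 and 1.22, against 0.0373 and 0.0302 in nucleus column 10. Whole-cell column 7 still held these genes above the floor, with SMB at 0.705, BRN1 at 1.03 and BRN2 at 0.818. In nuclei BRN2 stayed under the floor, at 0.340 in column 7. WER, an epidermis and root cap regulator, was at 5.32 in whole-cell column 10 and 1.27 in nucleus column 10. Whole-cell column 10 thus held root cap genes and mitosis genes side by side.

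Genes were lower in whole cells more often than higher in all 20 clusters. Over the 119618 pairs of a gene and a cluster at the floor, 25913 (21.7%) were at least 2-fold higher in whole cells and 55142 (46.1%) at least 2-fold lower. The share that was higher ran from 17.5% in cluster 8 to 26.4% in cluster 11. The share that was lower ran from 33.7% in cluster 1 to 52.3% in cluster 17. The median gene sat below 0 in every cluster, from -0.29 in cluster 1 to -1.14 in cluster 17. This did not hold for the most broadly listed genes. Over the 1503 genes at the floor in all 20 clusters, the median of the genes' median differences was 0.35. When each cluster was centred on its own median, 40502 pairs (33.9%) were higher and 35623 (29.8%) lower, so the higher share of shifted pairs was 53.2% in place of 32.0%. Directions below are those without centring unless stated.

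**Figure D1:**
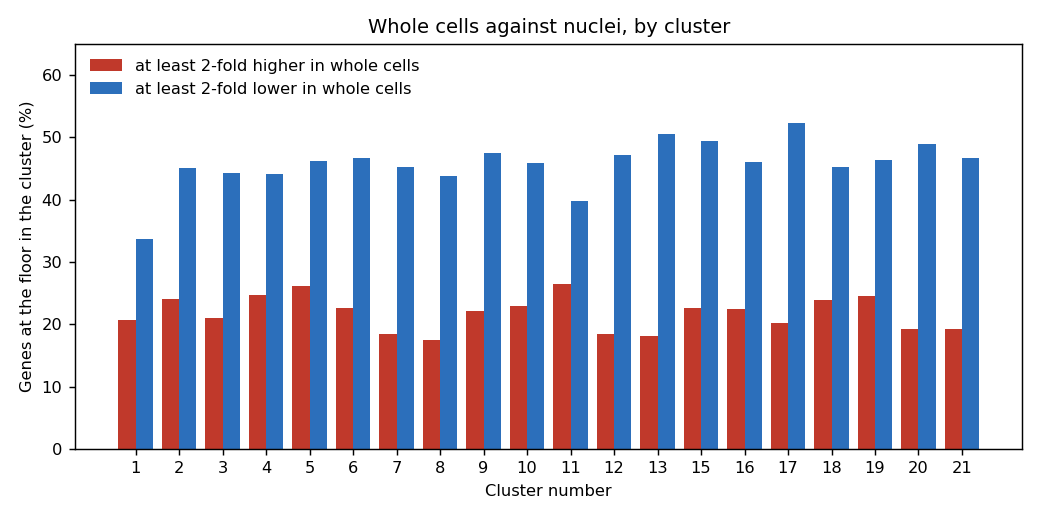
Share of genes at the floor of each cluster (vertical axis, %) that were at least 2-fold higher (red) or lower (blue) in whole cells than in nuclei, for the 20 cluster numbers on the horizontal axis. The blue bar exceeds the red one in all 20 clusters, with the smallest blue bar, 33.7%, in cluster 1.

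For the 1503 genes at the floor in all 20 clusters, most of the variation of the differences was shared by the clusters. After the median of each cluster was taken off, 88.9% of it was carried by the gene means over clusters. This share covers only these 1503 genes, not all 13755 at the floor somewhere. The difference of one cluster ranked genes much like that of another. Across these genes, Spearman correlations between pairs of clusters ran from 0.75 between clusters 1 and 10 to 0.96, with a median of 0.89, and genes are no independent replicates. The median gene had an SD of 0.59 on the log2 scale over the 20 clusters.

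In all, 143 genes were higher in whole cells in every cluster and 223 were lower in every cluster. They made up 1.04% and 1.62% of all genes at the floor somewhere, and 9.51% and 14.8% of the 1503 genes that could meet the rule. A further 146 genes were higher in 19 clusters and 268 lower in 19, and the missing cluster was most often cluster 1, for 97 and 196 of them. In 63 and 214 of these cases the gene was under the floor in the missing cluster. Leaving out cluster 1 gave 240 genes higher and 419 lower in all remaining clusters. With centring the counts were 325 higher and 119 lower, which included all 143 of the genes higher before and 119 of the 223 lower ones. In the 13 clusters whose columns matched best, 317 genes were higher throughout and 500 lower throughout.

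The other end of the range was larger. Shifts confined to 1 to 5 clusters were found for 7503 genes, or 54.5% of those at the floor somewhere. Most of these genes were listed in few clusters to begin with. Of the 7503, 5495 (73.2%) reached the floor in 5 clusters or fewer, and 4278 of them were shifted in every cluster in which they reached it. Only 742 of the 7503 reached the floor in 15 or more clusters. These 742 broadly listed genes were 19.9% of the 3725 genes listed that broadly, and 326 of them were higher, 259 lower and 157 both. Another 4913 genes were shifted in 6 to 20 clusters without being alike in all, and 973 in none.

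**Figure D2:**
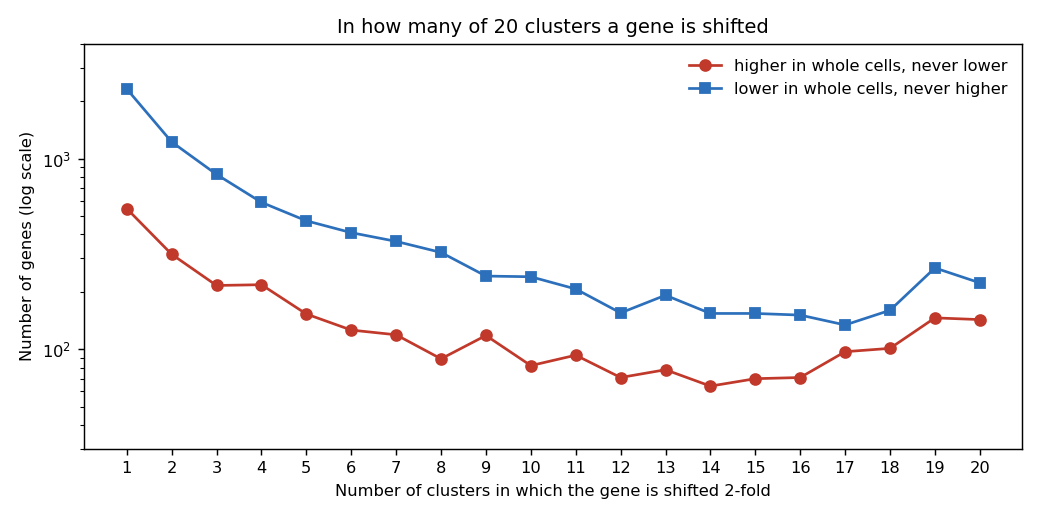
Number of genes (vertical axis, log scale) by the number of clusters in which they were shifted at least 2-fold (horizontal axis), for genes shifted only to higher (red circles) or only to lower (blue squares) values in whole cells. Both curves fall from 547 and 2324 genes at 1 cluster and are higher again towards the right, with 146 and 267 genes at 19 clusters and 143 and 223 at 20.

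The genes higher in whole cells in every cluster are described by the 12 with the largest median difference among those with a symbol. The median difference had a median of 3.03 over all 143 genes, and 29 were at least 4-fold higher in each of the 20 clusters. SRO5 (AT5G62520), of a family with roles in oxidative stress responses, was at 1.76 per 10000 in its lowest whole-cell column, 11.4 in the median one and 26.2 in the highest. In nuclei it was at 0, 0.0770 and 0.796. The whole-cell and nucleus ranges of SRO5 therefore did not overlap, and its median difference was 5.99, or 63.5-fold. SRO5 overlaps AT5G62530, and since use of the strand in counting is not given, its reads and those of that neighbour cannot be told apart.

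GSTU5 (AT2G29450), a glutathione transferase that conjugates toxic compounds, ranged from 2.51 to 38.4 in whole cells and from 0.0296 to 2.91 in nuclei, with a median difference of 5.87. RHL41 (AT5G59820), also known as ZAT12, is a zinc finger regulator of light, cold and oxidative stress responses. It ranged from 2.67 to 33.2 in whole cells and from 0 to 2.118 in nuclei, with a median difference of 5.64. bZIP1 (AT5G49450), a transcription factor of sugar starvation responses, ranged from 4.82 to 41.9 against 0.0190 to 0.843, with a median difference of 5.62. For RHL41 and bZIP1 the lowest whole-cell column stood above the highest nucleus column, while the GSTU5 ranges met. CML38 (AT1G76650), a wound-induced calmodulin-like calcium sensor, ranged from 0.756 to 18.97 in whole cells and from 0 to 0.270 in nuclei.

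Further named genes of this group had median differences between 4.96 and 5.43. They were the LBD family gene ASL5 (AT2G30130), the arabinogalactan protein gene AGP1 (AT5G64310), the phytosulfokine peptide precursor gene PSK2 (AT2G22860), the vitamin B6 synthesis gene RSR4 (AT5G01410), the dehydrin gene LTI30 (AT3G50970), the zinc finger gene PMZ (AT3G28210) and the methyltransferase gene FAMT (AT3G44860). All 12 of these leading genes had their smallest difference in cluster 1, from 1.43 for GSTU5 to 3.46 for ASL5. Only 1 gene past the rule had a larger median difference than SRO5 when genes without a symbol are counted. AT3G12510 was at 1.33 to 18.1 in whole cells and at 0 to 0.0419 in nuclei, with a median difference of 6.64.

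Near the boundary of this group, NOI (AT5G55850) was just inside, with a smallest difference of 1.002 in cluster 7. GSTF10 (AT2G30870) was just outside, at 0.99 in cluster 20.

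The genes lower in whole cells in every cluster are described in the same way. The median difference had a median of -2.69 over all 223 genes, and 67 were at least 4-fold lower in each of the 20 clusters. DR4 (AT1G73330), a protease inhibitor-like gene, was at 9.06, 22.7 and 321.8 per 10000 in its lowest, median and highest nucleus columns. In whole cells it was at 0, 0.0238 and 1.95. Its ranges did not overlap, and its median difference was -7.32. MLP328 (AT2G01520) and MLP329 (AT2G01530), neighbouring members of the major latex protein family, had median differences of -6.51 and -5.52. MLP328 ran from 5.01 to 96.7 in nuclei and did not exceed 0.00181 in any whole-cell column. The pair is similar in sequence, so their reads could be shared.

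nPAP (AT4G32850) encodes a nuclear poly(A) polymerase, the enzyme that adds the tail to messenger RNA. It was at 1.74 to 15.9 in nuclei and at 0.0600 to 0.202 in whole cells, with a median difference of -5.43 and an SD of 0.57 over clusters. That SD is close to the 0.50 of the median gene of this group. JAL22 (AT2G39310) and JR1 (AT3G16470), of the jacalin lectin family, had median differences of -5.11 and -3.89. DOX1 (AT3G01420), an alpha-dioxygenase that makes oxylipins, was at -4.54.

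Genes of specialised metabolism were among the 12. NSP1 (AT3G16400), which steers glucosinolate breakdown to nitriles, had a median difference of -4.41, CYP81F4 (AT4G37410), which modifies indole glucosinolates, -4.22, and THAS1 (AT5G48010), the thalianol synthase of a root triterpene pathway, -4.01. Among the 12 genes named by rule in this group CYP81F4 varied the most over clusters, with an SD of 1.64, from -6.71 in cluster 18 to -1.20 in cluster 7. It overlaps AT4G37409, and JR1 overlaps AT3G16460. The extensin gene EXT6 (AT2G24980) was at -4.11 and the glycine-rich protein gene GRP9 (AT2G05440) at -3.96. EXT6 ranged from 1.09 to 157.2 in nuclei and from 0 to 25.11 in whole cells, so its ranges overlapped although the nucleus value was the higher one in each cluster. GRP9 did not exceed 0.00189 in whole cells. Where the whole-cell value is at or near 0, as for GRP9, DR4 and MLP328, the size of the difference is set by the pseudocount of 0.1.

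AT3G06355, a long non-coding RNA gene, had a median difference of -7.13, from 13.1 to 226.2 in nuclei and from 0.0385 to 0.695 in whole cells. Of all 1503 genes at the floor in every cluster, only 8 were not annotated as protein-coding. They included 0 of the 143 genes higher throughout and 4 of the 223 lower throughout. CIPK23 (AT1G30270), a kinase that regulates ion channels, was just inside this group, with its smallest difference, -1.0008, in cluster 1. AT5G45430 was just outside, at -0.998 in cluster 10.

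Chromosome 2 carries a large copy of the mitochondrial genome, so reads of genes there cannot be told apart from mitochondrial ones. Of 24 genes at the floor with identifiers from AT2G07600 to AT2G07799, a stretch that includes that copy, 4 were lower in whole cells in all 20 clusters and 0 were higher. Over all 13755 genes at the floor somewhere, 1.62% were lower and 1.04% higher in all 20. The largest difference among the 24 was for AT2G07698, at 4.88 to 123.9 in nuclei and 0.0786 to 0.165 in whole cells, with a median difference of -5.91. These values are uncertain for that reason.

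**Figure D3:**
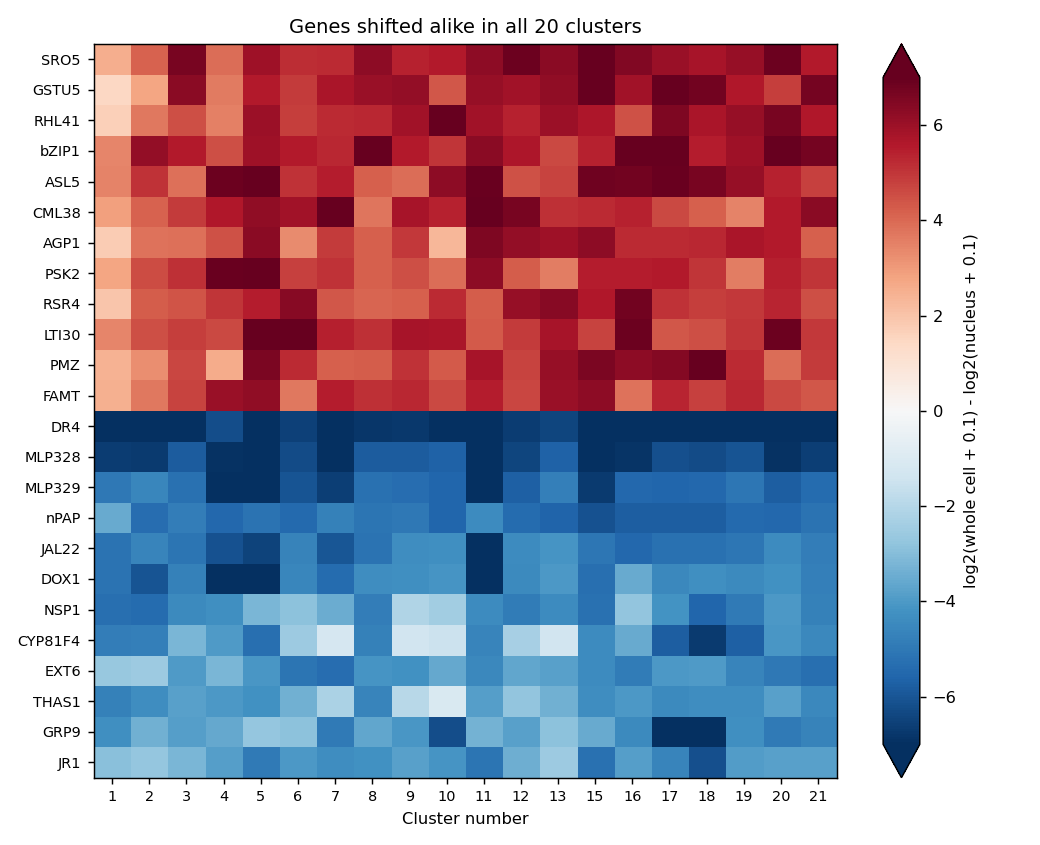
Difference between whole cells and nuclei (colour, log2 scale, red higher and blue lower in whole cells) for the 12 leading genes higher and the 12 leading genes lower in all 20 clusters (rows), by cluster number (columns). The colour scale ends at 7 in either direction. Cluster 1 is the palest column of the red rows, and CYP81F4 is palest in cluster 7, at -1.20.

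Gene length, which the grouping did not use, differed between these groups. The 143 genes higher throughout had a median length of 1608 bp, introns included, and 0% of them reached 5000 bp. The 223 genes lower throughout had a median length of 4665 bp, and 44.4% reached 5000 bp. All 1503 genes at the floor in every cluster had a median of 2327 bp, with 10.3% at 5000 bp or more. Lengths are those of the RefSeq annotation on the TAIR10.1 assembly.

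Over length classes of these 1503 genes the median difference went from 2.07 for 67 genes under 1000 bp, through 1.32, 1.07 and 0.63 in the next classes, to -0.84 for the 331 genes of 3000 to 5000 bp. It was -2.11 for the 112 genes of 5000 to 8000 bp and -2.32 for the 43 genes of 8000 bp or more. In that longest class 37 of 43 genes were lower in all 20 clusters and 0 were higher in all 20. The shortest class held 23 genes higher throughout and 1 lower throughout. The relation was present in every cluster, with a Spearman correlation between length and difference across genes from -0.41 in cluster 1 to -0.61 in cluster 9. In bulk, the median of protoplasts against intact tips was 0.23 for the class under 1000 bp. From there on it rose with each class, from -0.33 at 1000 to 1500 bp to 0.17 at 8000 bp or more. Over the genes at the floor in any cluster the bulk median went the opposite way to the whole-cell one. It was -0.96 for genes under 1000 bp and -0.14 for those of 8000 bp or more, while the median whole-cell difference was 0.03 and -2.10.

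Bulk protoplasts against intact tips gave a second readout that the grouping did not use. Of the 142 genes higher throughout that reached 5 FPKM in either bulk library, 72 (50.7%) were at least 2-fold higher in the protoplast library and 1 was lower. Among all 1489 genes at the floor in every cluster and at the bulk floor, 12.6% were higher and 12.8% lower. Each bulk group is a single library, so these folds have no replicate check. SRO5 read 10.0 FPKM for intact tips and 496.5 for protoplasts, AGP1 71.9 and 1595.2, and LTI30 258.2 and 1487.7. The 72 genes had a median whole-cell difference of 4.13, while the 69 that stayed within 2-fold in bulk had 2.22.

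Of the 216 genes lower throughout at the bulk floor, 48 (22.2%) were at least 2-fold lower in protoplasts and 2 were higher. DR4 read 2156.4 FPKM for intact tips and 19.2 for protoplasts, and GRP9 121.3 and 0.0819. The 48 genes and the 166 within 2-fold differed in length, with medians of 2607 bp and 5413 bp, and in whole-cell difference, with medians of -3.53 and -2.48. nPAP belonged to the second set, with 49.2 FPKM for intact tips and 25.8 for protoplasts. So did THAS1, at 526.8 and 473.6. Among all 12070 genes past both floors, 10.6% were higher and 28.5% lower in protoplasts. Across genes the bulk difference and the whole-cell difference had Spearman correlations from 0.21 in cluster 1 to 0.58 in cluster 11.

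**Figure D4:**
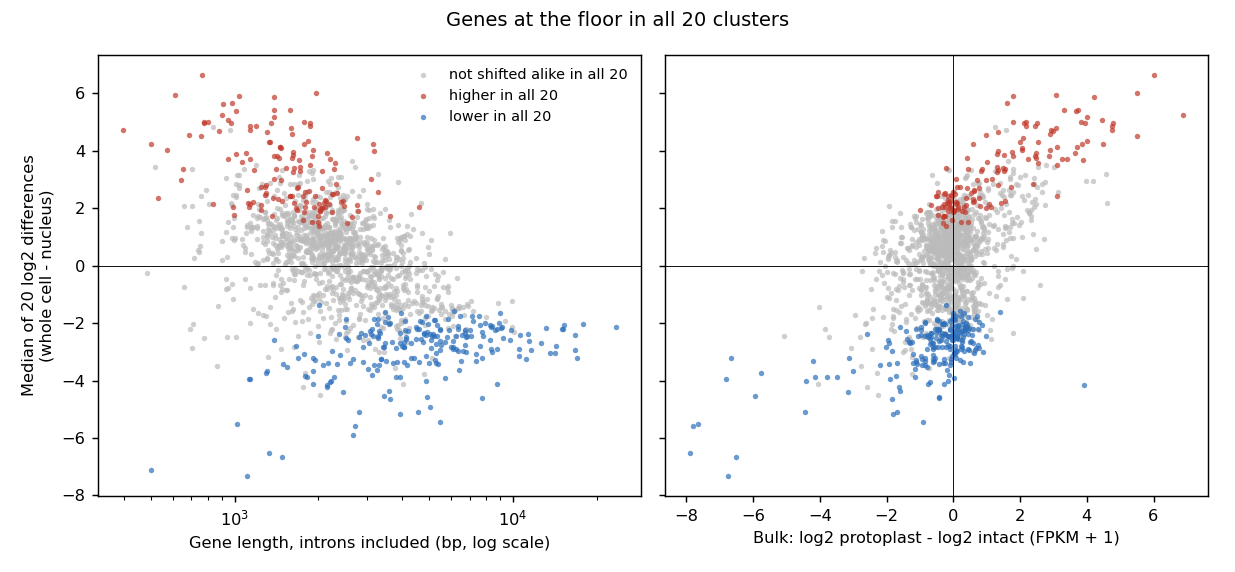
Median difference between whole cells and nuclei over the 20 clusters (vertical axis, log2) against gene length (left, bp, log scale) and against the bulk difference between protoplasts and intact tips (right, log2 scale), for genes at the floor in all 20 clusters. Genes lower throughout (blue) lie at long lengths, with a median of 4665 bp, and red genes, higher throughout, extend to the right in bulk.

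A few members of these groups lie side by side in the genome. Of the 143 genes higher throughout, 8 were next to another one, in the pairs GSTU25 and GSTU26, AT1G76640 and CML38, GSTU6 and GSTU5, and FAMT and AT3G44870. Of 219 genes lower throughout with an identifier that could be ordered, 10 had such a neighbour, among them MLP328 and MLP329. Among all 1495 such genes at the floor in every cluster, 188 (12.6%) lay next to another of the 1495. That share grows with the size of a set, so it is no measure for the smaller groups. Sets of matched size were not drawn. Sequence similarity was not tested, but some pairs belong to one family, as the GSTU and MLP genes do, and their reads could be shared.

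The gene lists, 20 in all, were read by cluster. Centring turned the sign of 6 list medians, which were then 0.60 for ribosomal proteins, 0.68 for Aux/IAA repressors, 0.55 for WRKY factors, 0.44 for histones, 0.21 for lipid transfer proteins and 0.00 for ABC transporters. A list median is the median of the members' own median differences, clusters under the floor included, and where both values are low the difference is near 0 by construction. Over only the pairs at the floor, the median was -1.80 for ABC transporters and -1.28 for lipid transfer proteins, and centring left it below 0, at -1.005 and -0.48. On that scale ribosomal proteins, Aux/IAA repressors and histones were above 0 without centring, at 0.02, 0.10 and 0.20. The median over all pairs at the floor was -0.79. Over all pairs of a gene and a cluster, 21.7% were higher and 46.1% lower, and the list shares are read beside these. The 23 wound, touch and stress regulators had 19 members at the floor, with 89.9% of their pairs higher and 3.15% lower. Their list median was 2.35 and that over pairs at the floor 3.31. The median of the members at the floor was above 0 in all 20 clusters, from 1.31 to 3.93. ABR1 (AT5G64750), an ethylene response factor, was higher in all 19 clusters in which it reached the floor, with a median difference of 5.15. RRTF1 (AT4G34410), a redox-responsive factor, was also higher in 19 clusters, with a median difference of 4.57. Nucleus values of ABR1 and RRTF1 did not exceed 0.281 and 0.0779, under the floor, so only higher calls were possible for both.

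Jasmonate genes, which act in wound and defence signalling, had 19 of 20 members at the floor, with 85.1% of pairs higher and 2.29% lower, a list median of 1.83 and a median over pairs at the floor of 2.504. Reads of ABR1, RRTF1, GSTF8, DREB2A, HTA9, WRKY40, MYA2, BGAL8, CASP5, BCAT4 and AGP21 are uncertain, since each overlaps a neighbouring gene. The JAZ repressors are made in response to the hormone. JAZ8 (AT1G30135) was higher in 19 clusters, JAZ10 (AT5G13220) and TIFY10B (AT1G74950), also named JAZ2, in all 20, and JAZ7 (AT2G34600) in 17. JAZ8 was at 8.29 in whole-cell column 17, where the nucleus value was 0. Its nucleus value did not exceed 0.0975 in any column, so only higher calls were possible for JAZ8. The synthesis gene OPR3 (AT2G06050) was higher in 18 clusters. MYC2 (AT1G32640), the factor that JAZ proteins repress, was higher in 5 clusters and lower in 2, and the storage protein gene VSP2 (AT5G24770) was lower in the 3 clusters in which it reached the floor.

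Oxidative stress and detoxification genes had 68.1% of pairs higher and 14.5% lower, with a list median of 1.31 and 2.43 over pairs at the floor. GSTF8 (AT2G47730) and GSTU19 (AT1G78380), both glutathione transferases, were higher in all 20 clusters, with median differences of 3.98 and 3.96. GSTF8 was already high in nucleus column 1, at 10.8, against 48.8 in whole-cell column 1. The ERF and DREB factors had 64.3% of pairs higher and 13.95% lower, with a list median of 1.04 and 2.096 over pairs at the floor. Among them RAP2.6 (AT1G43160) was higher in all 20 clusters and DREB2A (AT5G05410), a drought and heat regulator, in 19, with a median difference of 4.13.

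Common reference genes were not level. Of 110 pairs from 6 genes, 58.2% were higher and 0.909% lower. ACT2 (AT3G18780) ran from 0.04 in cluster 11 to 3.43 in cluster 20, where it was at 66.0 in whole cells and 6.02 in nuclei. GAPC1 (AT3G04120), a glycolytic enzyme gene, was higher in 17 clusters. PP2AA3 (AT1G13320), a phosphatase subunit gene, was shifted in 0 of the 11 clusters in which it reached the floor, with a median difference of -0.25. Tubulins and actins had 47.1% of pairs higher and 3.18% lower, and some of their copies are nearly identical, so reads could be shared among them.

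Medians of the members at the floor were below 0 in all 20 clusters for 5 lists, and for the same 5 after centring. Callose and cellulose synthases, which build wall polymers, had 0% of pairs higher and 96.0% lower, with a list median of -1.54, -2.14 over pairs at the floor, and a median length of 6555 bp. CESA2 (AT4G39350) was at 9.11 in nucleus column 6 and 0.381 in whole-cell column 6. GSL10 (AT3G07160), a callose synthase, was lower in all 20 clusters. Kinesins and myosins, the motors of the cytoskeleton, had 2.101% higher and 90.8% lower, with a list median of -1.28, -2.42 over pairs at the floor, and a median length of 7539 bp. The myosins MYA2 (AT5G43900) and XIK (AT5G20490) and the kinesin ZWI (AT5G65930) were lower in all 20.

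SR splicing factors, which select splice sites, had 0% of 295 pairs higher and 73.6% lower, with a list median of -1.31, -1.56 over pairs at the floor, and a median length of 2946 bp. SR34 (AT1G02840) was lower in all 20 clusters, from -1.64 to -4.32, and SR45a (AT1G07350) was lower in all 20 as well. Glucosinolate synthesis genes had 1.89% of pairs higher and 91.5% lower, with a list median of -1.32, -3.04 over pairs at the floor, and a median length of 2100 bp. MYB34 (AT5G60890), a regulator of indole glucosinolates, was at 14.1 in nucleus column 18 and 0.249 in whole-cell column 18, and it was lower in all 20 clusters. ABC transporters had 6.55% higher and 65.8% lower, with a list median of -0.78 and -1.80 over pairs at the floor.

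The lists were also read in bulk, where 28.5% of all 12070 genes past both floors were at least 2-fold lower in protoplasts. Of the lists lower in whole cells, 12 of 14 glucosinolate genes were lower in protoplasts, but only 1 of 15 callose and cellulose synthases, 2 of 18 kinesins and myosins, 2 of 18 SR factors and 7 of 57 ABC transporters. Lists without a single direction in whole cells could be lower in bulk, as 30 of 33 ribosomal protein genes and 17 of 21 histone genes were. Of the lists higher in whole cells, 15 of 18 jasmonate genes, 11 of 19 wound regulators, 16 of 31 ERF and DREB factors and 8 of 14 oxidative stress genes were at least 2-fold higher in protoplasts, against 10.6% of all genes. Of the 6 reference genes, 1 was.

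Lists of housekeeping genes differed in direction between clusters. The 33 cytosolic ribosomal protein genes had 21.4% of 513 pairs higher and 19.9% lower. Of the 33, 13 were higher in some clusters and lower in others. This was so for 1049 of all 13755 genes at the floor somewhere and for 417 of the 3725 broadly listed genes. Genes listed in few clusters have less room to be shifted both ways. The ribosomal protein median was above 0 in 10 clusters and below 0 in 10, from -1.12 to 1.32 in cluster 19. SAG24 (AT1G66580), an L10 protein gene, stood apart, being higher in all 20 clusters with a median difference of 3.43. RPL3B (AT1G61580) was lower in all 11 clusters in which it reached the floor. Its median whole-cell value was 0.0528, under the floor, so the floor favoured lower calls. Proteasome subunits had 16.8% higher and 16.1% lower, with a median of 0.12. The proteasome activator PA200 (AT3G13330) was lower in 18 clusters, with a median difference of -2.48. Its whole-cell value did not exceed 0.156, under the floor, so only lower calls were possible for PA200.

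Other families were split by member. Of 4 metallothionein genes in the tables, MT2A (AT3G09390) was higher in 19 clusters and MT1C (AT1G07610) lower in 19. MT2B (AT5G02380) was higher in 13 and lower in cluster 19, where it was at 105.6 in nuclei and 15.1 in whole cells. Of 13 heat shock genes at the floor, the small chaperone genes HSP17.6II (AT5G12020) and HSP17.6A (AT5G12030) were higher in 14 clusters each. Their nucleus values did not exceed 0.343 and 0.144, under the floor, so only higher calls were possible for both. BIP2 (AT5G42020), a chaperone of the endoplasmic reticulum, was lower in 19, and HSP81-2 (AT5G56030) in 18. Heat shock medians by cluster ran from -1.51 in cluster 3 to 2.52 in cluster 12.

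Histones, aquaporins and transcription factor families were mixed too. Among histones HTA9 (AT1G52740), an H2A.Z variant gene, was higher in all 20 clusters, HTB4 (AT5G59910) was lower in 16 and the linker histone gene HIS1-3 (AT2G18050) in 13. HIS1-3 was at 16.1 in nucleus column 15, where the whole-cell value was 0. No whole-cell column held more than 0.111 of HIS1-3, under the floor, so only lower calls were possible for it. Aquaporins had 39.4% of pairs higher and 19.5% lower. Of 19, 11 were shifted both ways, against 1049 of all 13755 genes and 417 of the 3725 broadly listed ones. The water channel genes PIP3 (AT4G35100) and PIP1;4 (AT4G00430) were higher in 16 and 13 clusters and lower only in cluster 10. WRKY factors had 35.2% higher and 36.7% lower, with WRKY40 (AT1G80840) and WRKY18 (AT4G31800), which act in defence, higher in 19 clusters each. Aux/IAA repressors had 28.7% higher and 22.9% lower. Lipid transfer proteins had 20.5% higher and 52.3% lower, over only 44 pairs.

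**Figure D5:**
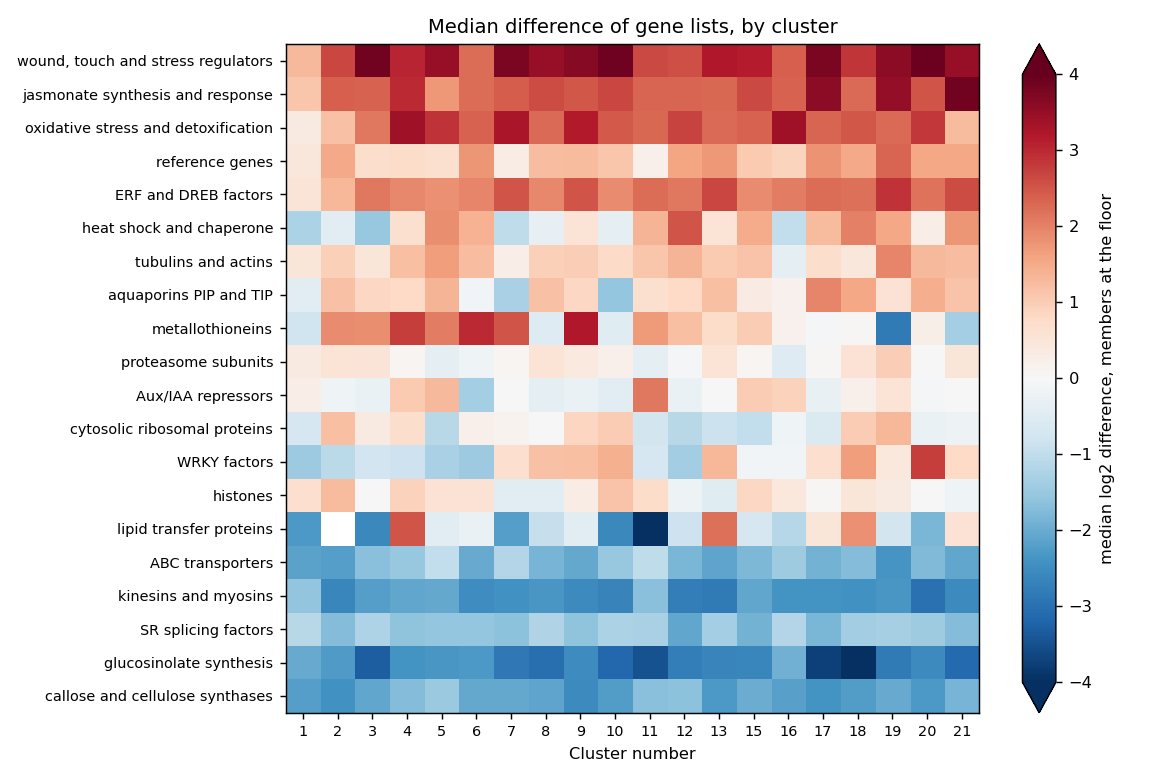
Median difference between whole cells and nuclei of the members at the floor (colour, log2 scale) for 20 gene lists (rows) in each cluster (columns). The colour scale ends at 4 in either direction, and a white cell has no member at the floor. The upper rows, down to the ERF and DREB factors, are above 0 throughout, the 5 lowest rows are below 0 throughout, and ribosomal proteins go from -1.12 to 1.32.

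The broadly listed genes shifted in 1 to 5 clusters are described next by their largest shift. GAE6 (AT3G23820), an epimerase of pectin precursors, reached the floor in 18 clusters and was higher in 4 of them. Its largest difference was 3.23 in cluster 15, at 2.904 in whole cells and 0.219 in nuclei, against a median of 0.36 over all clusters. PUMP1 (AT3G54110), a mitochondrial carrier, was highest in cluster 10, at 2.59. H2AXA (AT1G08880), a histone variant of DNA repair, was at 2.96 in whole-cell column 16 and 0.413 in nucleus column 16. Near-identical copies of H2A genes exist, so its reads could be shared.

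Several of these genes had their largest shift in cluster 19, whose columns were not each other's best match. PPa6 (AT5G09650), a pyrophosphatase, was at 1.18 in whole cells and 0.125 in nuclei there, and HMGS (AT4G11820), an early enzyme of isoprenoid synthesis, at 1.96 and 0.302. UBC9 (AT4G27960), a ubiquitin-conjugating enzyme gene, went the other way, at 6.43 in whole cells and 37.9 in nuclei. None of them was shifted in cluster 19 alone. PPa6 was also higher in clusters 4, 12, 13 and 15, HMGS in 4, 17 and 20, and UBC9 was also lower in 10 and 13. Across the 742 genes, cluster 19 held the most higher calls, 139, and cluster 16 the most lower ones, 78. Cluster 8 held the fewest of both kinds together, 34. The 13 best-matching clusters held a median of 109 such calls each and the other 7 a median of 116, with ranges of 34 to 159 and 76 to 185 that overlap.

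RD21A (AT1G47128), a vacuolar cysteine protease, was at 33.9 in nucleus column 4 and 2.94 in whole-cell column 4, a difference of -3.48, against a median of -0.23. NADK1 (AT3G21070) and XBAT31 (AT2G28840) were also lowest in cluster 4, at -3.04 and -2.53. KCR1 (AT1G67730), an enzyme of very-long-chain fatty acid synthesis, was at 6.71 in nucleus column 15 and 0.665 in whole-cell column 15. MK (AT5G27450), mevalonate kinase, was shifted in cluster 16 alone, at 4.14 in nuclei and 0.436 in whole cells, with a median of -0.05. GH9A1 (AT5G49720), the membrane cellulase also known as KORRIGAN, was lowest in cluster 1, at -2.47, and GH9B7 (AT1G75680) in cluster 2, at -2.72. Others of this set were the sorting receptor gene p24delta5 (AT1G21900), higher by 2.53 in cluster 2, RBP45B (AT1G11650), higher by 2.47 in cluster 20, and ADK1 (AT3G09820), adenosine kinase, higher by 2.43 in cluster 4. PUMP1, PPa6, NADK1, MK and GH9A1 overlap a neighbouring gene.

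Those higher in 1 to 5 clusters had a median length of 2228 bp and those lower 2938 bp, against 2536 bp for all 3725. In bulk 3.37% and 4.63% of these groups were higher in protoplasts and 13.5% and 12.7% lower, against 13.4% and 16.9% of the 3725 genes. Of the 157 shifted both ways, 9.62% were higher in protoplasts and 33.3% lower.

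The largest difference of each cluster among genes shifted in 1 to 5 clusters was mostly that of a gene listed in few clusters and at or near 0 in one table. In cluster 15, BGAL8 (AT2G28470), a beta-galactosidase gene, was at 15.9 in nuclei and 0.0131 in whole cells. CASP5 (AT5G15290), a Casparian strip gene, was at 5.37 in whole-cell column 15, where the nucleus value was 0. In cluster 16 CASP5 was at 24.8 in whole cells and 2.71 in nuclei, while CASP4 was at 3.78 and 15.7, so members of this family differed in direction in the same cluster. In cluster 19 the amino acid transporter gene UMAMIT27 (AT1G11450) was at 12.3 in nuclei and 0 in whole cells, and the peptide gene CLE5 (AT2G31083) at 9.07 in whole cells and 0.0575 in nuclei. In cluster 18, BCAT4 (AT3G19710), the first enzyme of methionine-derived glucosinolates, was at 11.7 in nuclei and 0 in whole cells.

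Cluster 4 paired the methyltransferase gene HMT3 (AT3G22740), at 8.38 in whole cells and 0.00323 in nuclei, with the transcription factor gene NAC074 (AT4G28530), at 7.72 in nuclei and 0.0115 in whole cells. In cluster 10 the arabinogalactan protein gene AGP30 (AT2G33790) was at 5.03 in whole cells and 0.0454 in nuclei. ATMPK13 (AT1G07880), a kinase gene that overlaps AT1G07885, was at 8.64 in nuclei and 0 in whole cells. In cluster 11 the pectinesterase gene PE11 (AT2G21610) was higher by 5.02 and the defence priming gene AZI1 (AT4G12470) was at 6.48 in nuclei and 0.00670 in whole cells. In cluster 17 the WRKY gene ABO3 (AT1G66600) was at 5.24 in whole cells, where the nucleus value was 0, and ANT (AT4G37750), a growth regulator, at 2.72 in nuclei and 0.00176 in whole cells. These sets include clusters 4, 10, 11, 17 and 19, whose columns were not each other's best match.

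Several vascular and pericycle markers that were highest under the same number in both tables were lower in whole cells. NPF7.3, PXY, CVP2 and SEOR1 below were under the floor in every whole-cell column, so their highest whole-cell column is uncertain. The nitrate transporter gene NPF7.3 was at 22.7 in nucleus column 18 and 0.0271 in whole-cell column 18, and the phosphate exporter gene PHO1 at 11.4 and 0.652. PXY, a receptor of vascular stem cells, was at 4.37 in nucleus column 21 and 0.0538 in whole-cell column 21, and ATHB8, a vascular regulator, at 10.8 and 0.758. Phloem genes differed among themselves. In column 19, SUC2, a sucrose transporter, was at 8.93 in nuclei and 8.34 in whole cells, APL, a phloem identity factor, at 7.99 and 6.15, and PP2-A1, a phloem lectin, at 11.4 and 2.33. CVP2, a phosphatase of vein patterning, was at 2.14 in nucleus column 17 and 0.0482 in whole-cell column 17. SEOR1, a sieve element protein gene, was at 0.932 in nucleus column 20 and 0.00135 in whole-cell column 20. In whole cells SEOR1 was highest in column 17, at 0.215 against 0.661 in nuclei. Xylem genes of column 21 went in both directions. XCP1, a protease of dying vessels, was at 21.2 in nuclei and 35.6 in whole cells, MYB46, a secondary wall regulator, at 1.88 and 6.89, and CESA4, of secondary wall cellulose, at 13.5 and 3.21. Mitosis genes in cluster 10 ranged from near level, with AUR1 at 3.08 in nuclei and 2.76 in whole cells, to CDC20.1, at 24.7 and 3.27.

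Some genes were shifted up in one cluster and down in another. They numbered 1049 of the 13755 genes at the floor somewhere. Of the 3725 genes that reached the floor in 15 or more clusters, 417 were shifted both ways. AGP21 (AT1G55330), an arabinogalactan protein gene, was higher in 14 clusters, with 15.1 in whole cells and 0.281 in nuclei in cluster 18. In cluster 10 it was the reverse, at 0.229 in whole cells and 5.79 in nuclei. WDL1 (AT3G04630), a microtubule-associated protein gene, was higher in 11 clusters and lower in cluster 10, and LOG1 (AT2G28305), which activates cytokinin, was higher in 10 and lower in cluster 10. That lower call of LOG1 rests on a nucleus value of 0.523, just over the floor, against 0.0621 in whole cells. Counting genes higher in 10 or more clusters and lower in 1 gave 46, and the exception was cluster 1 for 13 of them and cluster 10 for 9.

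BGLU34 (AT1G47600) and BGLU35 (AT1G51470), root myrosinases also known as TGG4 and TGG5, swapped between clusters 4 and 7. BGLU34 was at 21.2 in whole-cell column 4 and 0.894 in nucleus column 4, but at 0.0906 in whole-cell column 7 and 3.01 in nucleus column 7. BGLU35 was at 17.7 and 0.865 in cluster 4 and at 0.0759 and 2.501 in cluster 7. The 2 genes are similar in sequence, so their reads could be shared, and in neither cluster were the 2 columns each other's best match. GDU3 (AT5G57685), which promotes amino acid export, was lower in 9 clusters, with 10.7 in nucleus column 15 against 0.0400 in whole-cell column 15, and higher in cluster 20 alone.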

How the data were processed

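The deposited whole-cell and nucleus tables give, for each gene, the mean signal of a cluster as made by the authors, with 20 and 21 columns that each sum to about 10000. The bulk table holds FPKM values, as deposited, a unit taken from the values and not named in a label. Per the submitters' processing notes, tools included Cell Ranger 3.1.0 and Seurat 3.1.5 for single nuclei and TopHat2 2.0.11 for bulk reads, on TAIR10. How the whole-cell table was made is not given in the sources used here. Averaging within clusters leaves no replicates, so no test was run and every count describes these tables.

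Columns were scaled to 10000, and differences were taken as log2(value + 0.1) with a floor of 0.5 per 10000 and a threshold of 2-fold. Broadly listed means at the floor in 15 or more clusters. Bulk values were compared as log2(FPKM + 1) at 5 FPKM or more. All 23241 genes matched a RefSeq gene table of TAIR10.1, used for symbols, length and neighbours. On data simulated for this comparison with 13010 genes, 100% of genes shifted 4-fold in all clusters were recovered and 32.4% of those shifted 2.5-fold. For shifts placed in 3 clusters these shares were 100% and 73.5%. Of unchanged genes, 0% were called alike. Shifts were placed only on genes above the floor in every nucleus column, and the simulated noise was smaller than the real spread over clusters. These shares therefore give no error rate for the real calls. Calculations used Python 3.11.15, pandas 2.3.3, NumPy 2.4.6 and SciPy 1.17.1, and figures Matplotlib 3.10.9.

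The comparison, the 20 gene lists and the markers were chosen with earlier results of these data known. Genes with a symbol were named by rule. The rule took the 12 largest median differences in each direction among genes alike in all 20 clusters and the 8 largest in each direction among broadly listed genes shifted in 1 to 5. It also took the largest of each cluster, 8 genes with both directions, and up to 4 members per list. Genes such as AT3G12510, AT3G06355, AT2G07698, OPR3, MYC2, VSP2, PP2AA3, HSP81-2 and HTB4 were named after their values were seen. Alternatives were other pseudocounts, floors and thresholds, centring, subsets of clusters, and list medians over pairs at the floor only. Promoter motifs, a list of peroxidases and the accessibility table were not used here.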

Additional observations from a re-analysis of the deposited data

Results flagged for a closer look

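The genes below were higher in whole cells in some clusters and lower in others. Each value is the highest difference minus the lowest, on the log2 scale, and the difference between the clusters was not tested, since each cluster has 1 value per table. AGP21 differed by 9.48 between clusters 18 and 10, ACI1 (AT5G01370) by 8.77 between 19 and 10, WDL1 by 8.63 between 16 and 10, and LOG1 by 8.47 between 16 and 10. BGLU34 and BGLU35 differed by 8.45 and 8.09 between clusters 4 and 7. GDU3 differed by 8.21 between clusters 20 and 15, and the peroxidase gene Prx37 (AT4G08770) by 7.59 between 18 and 10. Cluster 10 was the low side for 5 of these 8 genes. Whole-cell column 10 was closer to nucleus column 9 than to nucleus column 10, at correlations of 0.54 and 0.48, and the part of this in the values was not tested.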

How the results depend on the processing

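No paired analysis was possible because the columns carry no replicate number and the 5 nucleus libraries are pooled. The cause of the moves below was not tested beyond each setting's own construction. Genes higher in all 20 clusters numbered 143, but 94 with a pseudocount of 0.5, 325 with centring, 29 at 4-fold, 317 in the 13 best-matching clusters, 390 when 18 of 20 clusters sufficed and 240 without cluster 1. Genes lower in all 20 numbered 223, but 77 with a pseudocount of 0.5, 49 with a floor of 1, 529 with a floor of 0.25, 813 with no floor, 119 with centring, 67 at 4-fold, 500 in the 13 clusters, 651 at 18 of 20 and 419 without cluster 1. The count of genes shifted in 1 to 5 clusters kept within 1.5 times of 7503, from 5672 to 8020, but shared as few as 3619 genes with it. Its broadly listed part, 742, was 219 with a floor of 1, 1540 with a floor of 0.25 and 7094 with no floor, a count added after the data were seen, as was leaving out clusters. Genes shifted both ways, 1049, numbered 399 with a pseudocount of 0.5, 559, 1627 and 2067 with a floor of 1, 0.25 and none, 166 at 4-fold and 541 in the 13 clusters. The shared variation, 88.9%, was 86.8% with a pseudocount of 0.5, 86.7% with a floor of 0.25 and 91.9% in the 13 clusters. Centring turned the sign of the medians of ribosomal proteins, Aux/IAA repressors, WRKY factors, lipid transfer proteins, histones and ABC transporters, and a pseudocount of 0.05 that of metallothioneins, from 0.14 to -0.14. A pseudocount of 0.05 gave -1.91 for callose and cellulose synthases and -1.74 for kinesins and myosins. A pseudocount of 0.5 gave 1.47 for wound regulators, 0.38 for ERF and DREB factors, -0.82 for SR factors, -0.83 for callose and cellulose synthases, -0.34 for ABC transporters, -0.40 for kinesins and myosins and -0.42 for glucosinolate genes. Centring gave 2.64 for jasmonate, 3.21 for wound, 2.14 for oxidative stress, 1.91 for reference genes, 0.89 for the proteasome, 1.94 for ERF and DREB factors, 0.44 for histones, 1.48 for tubulins and actins, -0.50 for SR factors, -0.78 for callose and cellulose synthases, 0.000822 for ABC transporters and -0.52 for kinesins and myosins. Taking only pairs at the floor, added after the data were seen, gave 2.504 for jasmonate, 3.31 for wound, 2.43 for oxidative stress, 2.096 for ERF and DREB factors, -2.14 for callose and cellulose synthases, -1.80 for ABC transporters, -2.42 for kinesins and myosins and -3.04 for glucosinolate genes. It turned the sign of ribosomal proteins, Aux/IAA repressors and histones. With centring as well, these pairs gave 3.28 for jasmonate, 4.18 for wound, 3.19 for oxidative stress, 2.78 for ERF and DREB factors, 1.76 for metallothioneins, 2.03 for reference genes, 0.83 for ribosomal proteins, 1.0001 for the proteasome, 1.38 for aquaporins, 0.95 for Aux/IAA repressors, 1.0074 for histones, 1.72 for tubulins and actins, -1.64 for kinesins and myosins and -2.18 for glucosinolate genes. Of the values of named genes under other settings, 498 kept within 1 SD over clusters and 135 moved further, and centring turned the sign of AT4G08770, AT5G59320 and AT1G27950. Depth is unknown, so low values cannot be given an interval.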
